A study of Mus musculus with 6 samples.

Results

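The genes described are 34 nucleolar genes of ribosome biogenesis, which encode the enzymes and assembly factors that make ribosomal RNA (rRNA) and build it into ribosomal subunits. They were chosen by gene symbol, with earlier results of these data known. All 34 were found among the 39179 genes of the deposited expression table. They comprise 5 genes of RNA polymerase I transcription, 4 of the nucleolar scaffold, 3 of the box C/D and 4 of the box H/ACA small nucleolar ribonucleoprotein (snoRNP) cores, 7 of 40S subunit assembly, 3 of the PeBoW complex, 6 further genes of 60S subunit assembly, and 2 regulators of rRNA transcription. Their RNA was compared between germinal center (GC) B cells and naive B cells, which are the resting cells of the same tissue.

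Ribosomes are assembled in the nucleolus. RNA polymerase I transcribes a long precursor there, which snoRNPs modify by 2'-O-methylation (box C/D) or pseudouridylation (box H/ACA), and which nucleases, helicases and scaffold proteins cut, fold and join to ribosomal proteins. GC B cells divide fast while they mutate and select their antibody genes, whereas naive B cells are quiescent, and growth and division call for new ribosomes.

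Both populations came from Peyer's patches of the ileum of female WT C57BL/6 littermates aged 12 wk. GC B cells were sorted as Fas+GL7+ and naive B cells as Fas-GL7- B cells. There were 3 GC pools and 3 naive pools, and per the study's methods each pool combined 5 mice, so that variation between single animals cannot be seen. Levels are given in TPM (transcript abundance per length, scaled to the same total in every pool), computed here from the deposited FPKM, and differences as the log2 fold change, GC minus naive, of log2(TPM + 1). In such bulk values, more RNA per cell cannot be told apart from more cells that express a gene, and a total set to the same sum in every pool does not show whether a cell holds more RNA in all.

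Of 12785 genes that reached 1 TPM in 3 or more pools, 8392 (65.6%) passed an adjusted p of 0.05 (limma, Benjamini-Hochberg). Calls were split into 4540 genes higher in GC B cells (35.5%) and 3852 lower (30.1%), and in 70.7% of genes the pools of the populations did not overlap. The sort markers went with the labels, with Fas at 108, 115 and 119 TPM across the GC pools against 3.05, 3.59 and 3.03 TPM across the naive pools. The 5 markers of cycling cells, Mki67, Top2a, Ccnb1, Cdk1 and Pcna, were all higher in GC B cells and summed to 1517 to 1563 TPM across the GC pools against 125 to 130.2 TPM across the naive pools. The 7 intestinal epithelial markers summed to 27.5 to 47.8 TPM across the GC pools against 58.5 to 91.8 TPM across the naive pools, the 5 T cell markers to 1.65 to 3.51 TPM across the GC pools against 1.72 to 2.46 TPM across the naive pools, and the 5 myeloid markers to 0.836 to 2.31 TPM across the GC pools against 3.96 to 7.07 TPM across the naive pools, with Cd14 at 0 in 5 of the 6 pools. The 4 plasma cell markers summed to 766 to 801 TPM across the GC pools against 139.97 to 173 TPM across the naive pools, of which Igj and Prdm1 were higher and Sdc1 and Xbp1 lower in GC B cells. The part of cell cycling and of these other cells in the results was not tested.

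Of the nucleolar genes, more were higher than lower in GC B cells, and the largest increases were those of Nop16, Nhp2, Ncl, Gar1, Nop58 and Npm1. All 34 passed the filter on low values, and 22 were called. Of these, 19 (55.9% of the members, against 35.5% of all genes tested) were higher in GC B cells and 3 (8.82%, against 30.1%) were lower, while 12 were not called. The median log2 fold change was 0.25 over the members and 0.03 over all genes tested. Differences were small in size. They ranged from -0.52 for Rrp9 to 0.89 for Nop16, and 0 of 34 members reached a log2 fold change of 1 in either direction, which 25.4% of all genes tested did with a call. In 24 of the 34 members the pools of the populations did not overlap, against 70.7% of all genes tested. After quantile normalization, which forces the same distribution on each pool, 14 members were higher and 5 lower, and the median was 0.13 over the members and -0.06 over all genes tested.

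**Figure D1:**
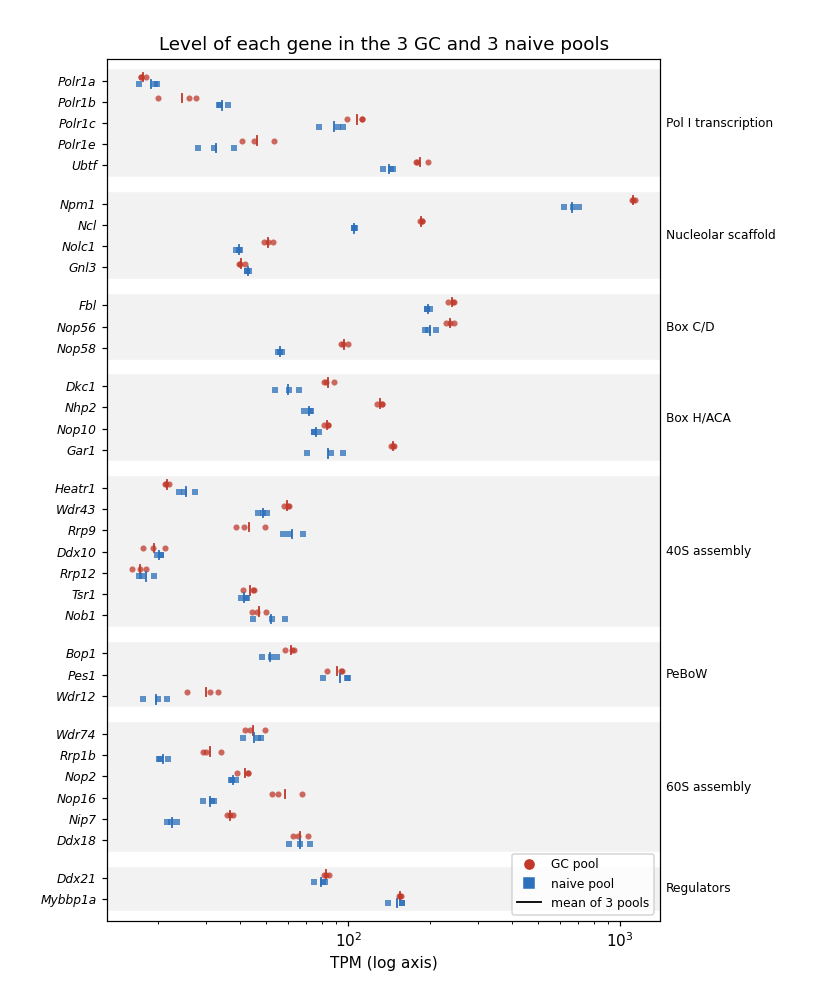
Level of each of the 34 genes in TPM on a log axis, by role. Red circles are the 3 GC pools, blue squares the 3 naive pools, and vertical lines the means. Npm1 stands far to the right of all other genes. Red and blue points lie well apart for Nop16, Nhp2, Ncl, Gar1, Nop58 and Npm1, and close together for other genes of the same groups, such as Gnl3 and Nop10.

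Together the 34 genes took up 0.373, 0.376 and 0.375% of all TPM in the GC pools and 0.282, 0.275 and 0.283% in the naive pools. Their summed level was 3748 ± 17.4 TPM (SD, n = 3) in GC B cells against 2800.1 ± 44.4 TPM (SD, n = 3) in the naive population, a ratio of 1.34. Npm1 alone made up 29.8% to 30.1% of that sum in the GC pools and 22.5% to 24.99% in the naive pools, and without Npm1 the ratio was 1.23. By role, the ratio of the summed levels was 1.64 for the scaffold, 1.52 for box H/ACA, 1.27 for box C/D, 1.25 for the further 60S factors, 1.205 for RNA polymerase I transcription, 1.11 for PeBoW, 1.03 for the regulators and 0.937 for 40S assembly. The sums of the scaffold, snoRNP, RNA polymerase I and further 60S groups were higher in every GC pool than in any naive pool. Those of PeBoW were barely so, with a lowest GC pool of 172.73 TPM against a highest naive pool of 172.52 TPM. The sums of 40S assembly and the regulators overlapped. Abundant genes weigh most in such sums. In GC B cells Npm1 held on average 1121 of the 1398 TPM of the scaffold, and Ubtf 184 of the 381 TPM of RNA polymerase I transcription. Gnl3 of the scaffold and Polr1b of the RNA polymerase I group were lower in every GC pool than in any naive pool, and of these only Polr1b was called.

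The genes were expressed at middle to high levels. Their mean levels lay between the 46.3 and the 98.7 percentile of all genes tested, with a median at the 76.1 percentile. Pools of a population differed little, with a median coefficient of variation over the members of 4.35% in GC B cells and 5.05% in naive B cells, against 8.35% and 9.79% over all genes tested. In both populations Npm1 ranked first and Rrp12 last. Next after Npm1 came Fbl and Nop56, whose pools overlapped in both populations. Of the 33 pairs of neighbors in the order of mean levels, 23 had overlapping pools in GC B cells and likewise 23 in naive B cells, so that most positions in the order are not distinct.

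**Figure D2:**
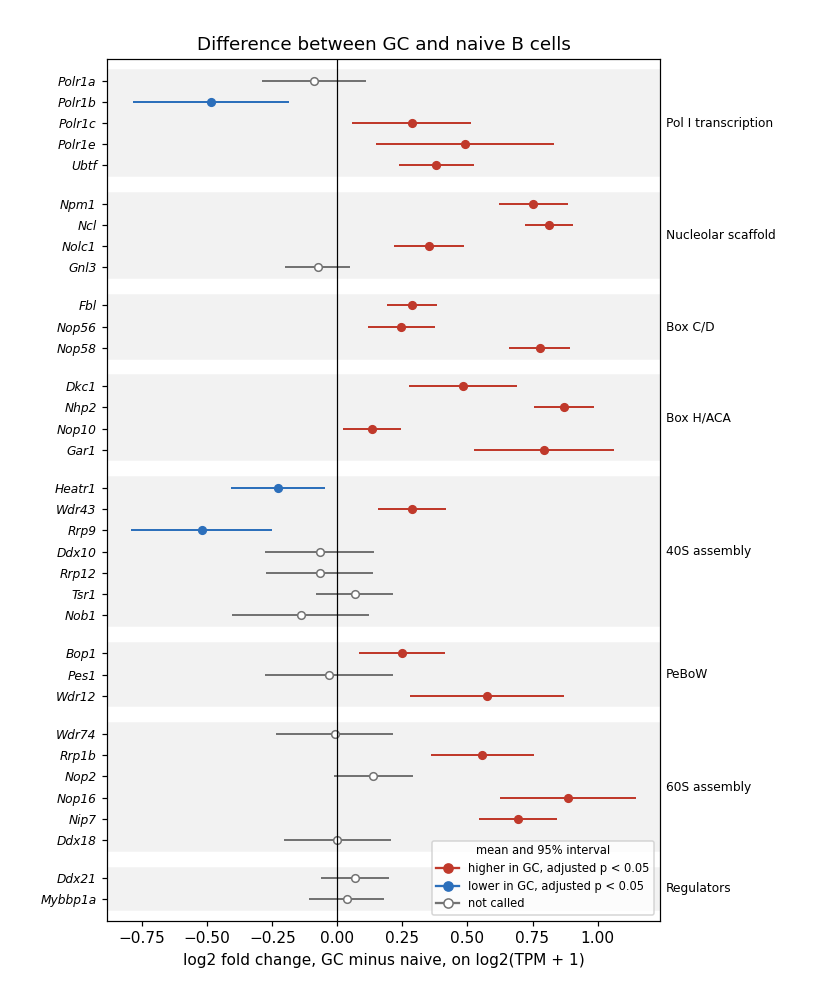
Log2 fold change of each of the 34 genes, GC minus naive, with its 95% interval from limma, by role. Red points are the 19 genes called higher in GC B cells, blue points the 3 called lower, and open grey points the 12 not called. All 7 snoRNP genes lie to the right of 0, whereas the 40S genes lie on both sides.

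RNA polymerase I transcription was split. Ubtf, which binds rDNA and opens it for the polymerase, was measured at 179, 177 and 196 TPM across the GC pools against 143, 146 and 134 TPM across the naive pools, and the groups did not overlap (log2 fold change 0.38 ± 0.058 (SE), adjusted p = 0.00135). Polr1e (PAF53), a peripheral subunit, was at 40.7, 53.2 and 44.97 TPM across the GC pools against 28.1, 32 and 38.1 TPM across the naive pools, also without overlap (log2 fold change 0.49 ± 0.14 (SE), adjusted p = 0.0206). Polr1c, a subunit shared with RNA polymerase III, was at 113, 112 and 99.02 TPM across the GC pools against 91.9, 78.04 and 95.8 TPM across the naive pools (log2 fold change 0.28 ± 0.094 (SE), adjusted p = 0.0343); its highest naive pool came within a few TPM of its lowest GC pool. In contrast, Polr1b, the second-largest catalytic subunit, was lower in each GC pool, with 20.02, 26.1 and 27.6 TPM across the GC pools against 33.6, 36.1 and 33.8 TPM across the naive pools (log2 fold change -0.49 ± 0.12 (SE), adjusted p = 0.0126). Polr1a, the largest subunit, was measured at 17.3 to 18.1 TPM across the GC pools against 17.1 to 19.8 TPM across the naive pools, the groups overlapped, and the difference was not called (95% interval -0.29 to 0.11). The call of Polr1e was lost without GC replicate 2 (adjusted p = 0.0565), naive replicate 1 (adjusted p = 0.0568) or naive replicate 2 (adjusted p = 0.0561), and with quantile normalization (adjusted p = 0.0575). That of Polr1c was lost without GC replicate 1 (adjusted p = 0.0976), GC replicate 2 (adjusted p = 0.0952), naive replicate 1 (adjusted p = 0.0545) or naive replicate 2 (adjusted p = 0.0678), and under every other scaling tried but 1, that by the total over genes above 0 in every pool, with adjusted p up to 0.243.

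The promoters of Polr1c and Polr1e both hold the letters CCGGAAG, the core recognized by ETS family factors. In both genes the match lies within a short distance of the start site. The letters were found in 11 of 30 member promoters examined (36.7%) and in 19.8% of promoters of tested genes. These 30-base segments, from RefSeq GRCm38.p6 and read on the strand of the gene, show the match in capitals, and the match in Polr1e is read on the other strand.
Polr1c, chr17:46248070-46248099, minus strand: cccacttgacgtCCGGAAGtgaaggacgtg
Polr1e, chr4:45018622-45018651, plus strand: cctagaatgtcaCTTCCGGtttttgagtcc

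Among the genes of the nucleolar scaffold, Npm1 and Ncl showed the clearest separation. Npm1 (nucleophosmin, chr11:33152498-33164142 in GRCm38), a chaperone that forms the granular outer region of the nucleolus, was at 1109.6, 1134 and 1118 TPM across the GC pools against 669, 619.7 and 707 TPM across the naive pools (log2 fold change 0.75 ± 0.054 (SE), adjusted p = 3.74e-05). Ncl (nucleolin, chr1:86344719-86359455), which binds nascent pre-rRNA and rDNA chromatin, was at 187, 187 and 183 TPM across the GC pools against 105, 105 and 106 TPM across the naive pools (log2 fold change 0.81 ± 0.036 (SE), adjusted p = 4.65e-06). Every GC pool lay far above every naive pool for both genes. Nolc1 (Nopp140), which accompanies snoRNPs, differed less, with 48.9, 50.5 and 52.8 TPM across the GC pools against 39.7, 40.2 and 38.8 TPM across the naive pools (log2 fold change 0.35 ± 0.053 (SE), adjusted p = 0.00128). Gnl3 (nucleostemin), a GTP-binding protein of the nucleolus, was not called, with 40.1, 39.8 and 41.7 TPM across the GC pools against 42.3, 42.5 and 43.3 TPM across the naive pools, although its pools did not overlap (log2 fold change -0.08 ± 0.05 (SE), adjusted p = 0.231). After quantile normalization Gnl3 was called lower in GC B cells (log2 fold change -0.18, adjusted p = 0.025), as it was after adjusting for base composition and transcript length (log2 fold change -0.21, adjusted p = 0.011). Npm1 has processed pseudogenes that share its sequence, and reads matching several copies were divided by RSEM's model, so its level is less certain than that of a unique gene.

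All 3 core proteins of box C/D snoRNPs, which methylate rRNA, were higher in GC B cells, but not equally. Nop58 (chr1:59684961-59711510) was at 94.4, 96.1 and 99.9 TPM across the GC pools against 55.9, 57.2 and 55.1 TPM across the naive pools (log2 fold change 0.78 ± 0.046 (SE), adjusted p = 1.66e-05). Its partner Nop56 was at 245, 237 and 228 TPM across the GC pools against 197, 191 and 210.4 TPM across the naive pools (log2 fold change 0.25 ± 0.052 (SE), adjusted p = 0.00588). Fbl (fibrillarin), the methyltransferase itself, was at 242, 245 and 233 TPM across the GC pools against 196, 195 and 199.7 TPM across the naive pools (log2 fold change 0.29 ± 0.038 (SE), adjusted p = 0.000724). The pools of no gene of this core overlapped between the populations. The ratio of Nop58 to Fbl was 0.39, 0.392 and 0.428 in the GC pools and 0.286, 0.293 and 0.276 in the naive pools, without overlap, whereas the ratio of Fbl to Nop56 was 0.988, 1.04 and 1.02 in the GC pools and 0.993, 1.02 and 0.949 in the naive pools, with overlap. The call of Nop56 was lost with quantile normalization (adjusted p = 0.0701) and after adjusting for base composition and transcript length (adjusted p = 0.11).

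The box H/ACA core, which pseudouridylates rRNA and also stabilizes telomerase RNA, was called higher in 4 of 4 genes. Nhp2 (chr11:51619773-51623718), an RNA-binding subunit, was at 133, 133 and 128 TPM across the GC pools against 73.2, 68.8 and 72.5 TPM across the naive pools (log2 fold change 0.87 ± 0.046 (SE), adjusted p = 1.01e-05). Gar1 (chr3:129824912-129831407), which contacts the catalytic subunit, was at 144, 146 and 148 TPM across the GC pools against 96.1, 70.6 and 86.7 TPM across the naive pools (log2 fold change 0.79 ± 0.11 (SE), adjusted p = 0.000817). Dkc1 (dyskerin), the pseudouridine synthase, was at 88.5, 81.4 and 82.8 TPM across the GC pools against 53.6, 60.8 and 66.2 TPM across the naive pools (log2 fold change 0.48 ± 0.085 (SE), adjusted p = 0.00255). The pools of these 3 genes did not overlap, although the naive pools of Gar1 spread more (coefficient of variation 15.2%) than its GC pools (1.31%). Nop10, the smallest subunit, was at 84.5, 84.4 and 81.3 TPM across the GC pools against 74.8, 75.1 and 78.1 TPM across the naive pools, and its difference was the least of all members called (log2 fold change 0.13 ± 0.045 (SE), adjusted p = 0.0382). It turned to -0.02 with quantile normalization (adjusted p = 0.745) and to -0.06 after adjusting for base composition and transcript length (adjusted p = 0.32), and 5 of the 6 fits without 1 pool, all but that without naive replicate 3, lost the call, with adjusted p between 0.068 and 0.124.

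The promoters of Nhp2 and Gar1, the H/ACA genes with the largest differences, are shown in the same way with their CCGGAAG match in capitals; that of Gar1 is read on the other strand. The promoters of Dkc1 and Nop10 did not hold these letters in the 300 bases examined. Over the members examined, 6 of 11 with these letters were called higher, as were 10 of 19 without them. Heatr1 holds the letters too and was called lower.
Nhp2, chr11:51619738-51619767, plus strand: ccacttgaaaacCCGGAAGtgatgtcggag
Gar1, chr3:129831422-129831451, minus strand: cgcgccgccacaCTTCCGGaaacgtcgcgt

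Because subunits of a complex act together, their ratios were compared within each pool over 18 pairs, in an exact two-sided permutation test. With 3 pools against 3 the smallest p is 0.1, so no pair can pass 0.05. A pair without overlap between the populations always takes that smallest p, as 11 pairs did (0.164 after adjustment over the 18 pairs). Of single genes tested, 70.7% did not overlap, and the share over ratios of other gene pairs was not computed. The ratios are built from the same levels as the calls of single members, so they are not separate support for them. In box H/ACA the ratio of Nhp2 to Nop10 was 1.57, 1.58 and 1.57 in the GC pools and 0.979, 0.915 and 0.928 in the naive pools, and that of Gar1 to Nop10 was 1.704, 1.73 and 1.82 in the GC pools and 1.28, 0.94 and 1.11 in the naive pools. The ratio of Gar1 to Nhp2 was 1.08, 1.099 and 1.15 in the GC pools and 1.31, 1.03 and 1.197 in the naive pools, with overlap. In RNA polymerase I the ratio of Polr1b to Polr1e was 0.491, 0.49 and 0.613 in the GC pools and 1.198, 1.13 and 0.885 in the naive pools, the widest change of ratio of all pairs, and in PeBoW that of Wdr12 to Pes1 was 0.353, 0.305 and 0.328 in the GC pools and 0.202, 0.176 and 0.267 in the naive pools. Ratios compare TPM, which is per transcript length, and concern RNA and not protein.

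**Figure D3:**
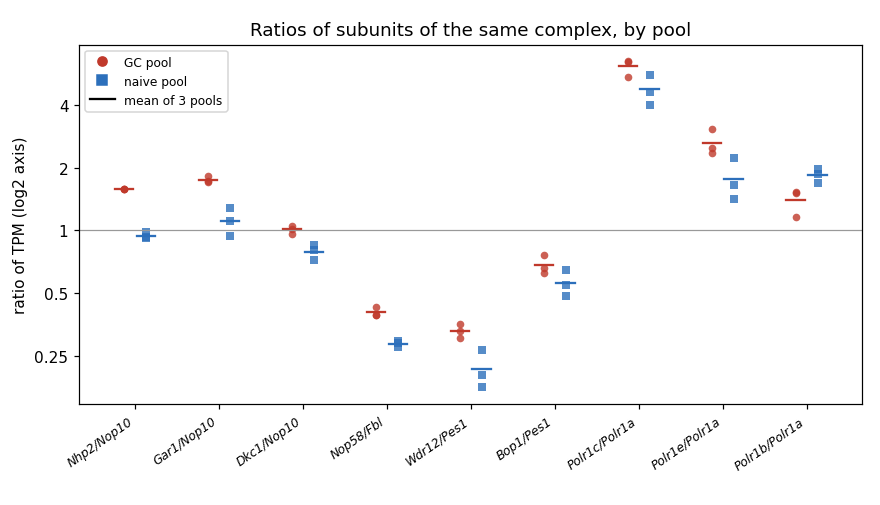
Ratio of TPM between subunits of the same complex in each pool, on a log2 axis. Red circles are GC pools, blue squares naive pools, and short lines the means of 3 pools. Nhp2 to Nop10 lay near 1.58 in each GC pool and below 1 in each naive pool, and Polr1b to Polr1a was lower in each GC pool.

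Genes of 40S assembly were divided. Of 7, 1 was higher, 2 were lower and 4 were not called, with a median log2 fold change of -0.07. Wdr43 (UTP5), a factor of the early pre-rRNA complex that links transcription to processing, was at 59.9, 60.5 and 58.3 TPM across the GC pools against 48.8, 50.5 and 46.6 TPM across the naive pools (log2 fold change 0.29 ± 0.052 (SE), adjusted p = 0.00296), and every GC pool was above every naive pool. Rrp9, a protein of the U3 snoRNP needed for the first cleavages, was at 41.2, 38.5 and 49.4 TPM across the GC pools against 57.5, 60.4 and 68.3 TPM across the naive pools and was the member with the largest decrease (log2 fold change -0.52 ± 0.11 (SE), adjusted p = 0.00587). Heatr1 (UTP10), a large scaffold of the small subunit processome, was at 21.8, 21.3 and 21.3 TPM across the GC pools against 27.4, 24.8 and 23.8 TPM across the naive pools (log2 fold change -0.23 ± 0.073 (SE), adjusted p = 0.0321). The groups did not overlap for either gene. The call of Heatr1 was lost in 5 of the 6 fits that left out 1 pool, all but that without naive replicate 3, with adjusted p between 0.0695 and 0.0982.

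The other 4 genes of this group were not called. Ddx10, an RNA helicase, was at 17.5 to 21.2 TPM across the GC pools against 19.8 to 20.5 TPM across the naive pools (95% interval of the log2 fold change -0.27 to 0.14). Rrp12, an export factor of pre-ribosomes, was at 16.1 to 18.03 TPM across the GC pools against 17.1 to 19.4 TPM across the naive pools (-0.27 to 0.13). Tsr1, a late factor of the pre-40S particle, was at 41.1 to 44.95 TPM across the GC pools against 40.2 to 42.5 TPM across the naive pools (-0.08 to 0.21). Pools overlapped in each case. Nob1, the endonuclease that makes the mature 3' end of 18S rRNA, was at 44.1 to 50.1 TPM across the GC pools against 44.8 to 58.7 TPM across the naive pools (-0.40 to 0.12) and was called lower without naive replicate 3 (log2 fold change -0.24, adjusted p = 0.0492) or with quantile normalization (log2 fold change -0.26, adjusted p = 0.0457). In Tsr1, 1240 of 3837 annotated exon bases (32.3%) are also exon of Srr on the opposite strand. The RSEM options listed in the study's methods name no strand setting, so that reads of Tsr1 cannot be fully told apart from those of Srr. The other 10 members that share exon bases with a gene on the opposite strand share less than 5% of them.

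PeBoW is a complex of Pes1, Bop1 and Wdr12 that processes the precursor of the 60S rRNAs. Wdr12 was at 33.2, 25.6 and 31.1 TPM across the GC pools against 19.97, 17.6 and 21.5 TPM across the naive pools (log2 fold change 0.58 ± 0.12 (SE), adjusted p = 0.00573), and Bop1 was at 58.5, 63.4 and 62.3 TPM across the GC pools against 48.03, 54.7 and 52.1 TPM across the naive pools (log2 fold change 0.25 ± 0.067 (SE), adjusted p = 0.0162); neither overlapped. Pes1, the most abundant of the 3, was at 83.7 to 94.8 TPM across the GC pools against 80.6 to 100.2 TPM across the naive pools, which overlapped and was not called (95% interval -0.27 to 0.21). The call of Bop1 was lost without GC replicate 2 (adjusted p = 0.0575) or GC replicate 3 (adjusted p = 0.054), and with quantile normalization (adjusted p = 0.147).

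Of the 6 further genes of 60S assembly, 3 were among the members that differed most. Nop16 (chr13:54584191-54590097), a nucleolar protein of early pre-60S particles, was at 54.98, 67.8 and 52.3 TPM across the GC pools against 32.1, 29.1 and 31.6 TPM across the naive pools (log2 fold change 0.89 ± 0.11 (SE), adjusted p = 0.000429). Nip7 (chr8:107056877-107060931), which binds pre-rRNA, was at 37.8, 36.9 and 35.9 TPM across the GC pools against 23.4, 21.6 and 22.2 TPM across the naive pools (log2 fold change 0.69 ± 0.061 (SE), adjusted p = 9.64e-05). Rrp1b, a nucleolar homologue of yeast Rrp1, was at 30.1, 29.1 and 34.01 TPM across the GC pools against 20.1, 21.8 and 20.4 TPM across the naive pools (log2 fold change 0.56 ± 0.081 (SE), adjusted p = 0.00102). In all 3 genes each GC pool exceeded each naive pool, and their calls remained in all 16 alternative analyses. Nop2, the methyltransferase of a cytosine in the large rRNA, was at 42.9, 38.9 and 42.99 TPM across the GC pools against 37.3, 37.2 and 38.5 TPM across the naive pools, which did not overlap, but was not called (log2 fold change 0.14 ± 0.061 (SE), adjusted p = 0.0889). It was called higher after adjusting for base composition and transcript length (log2 fold change 0.2004, adjusted p = 0.0317). Wdr74, a cofactor of particle remodeling, was at 41.7 to 49.3 TPM across the GC pools against 40.9 to 47.97 TPM across the naive pools (95% interval -0.23 to 0.21), and the helicase Ddx18 was at 62.7 to 71.2 TPM across the GC pools against 60.7 to 72.7 TPM across the naive pools (95% interval -0.20 to 0.20). The pools of both overlapped.

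The 2 regulators of rRNA transcription were abundant, and neither was called. Ddx21, a helicase that binds rDNA and snoRNAs, was at 81.2 to 85.2 TPM across the GC pools against 75.2 to 82.3 TPM across the naive pools (95% interval -0.06 to 0.19), and Mybbp1a, a repressor of RNA polymerase I, was at 154 to 157 TPM across the GC pools against 139.7 to 158 TPM across the naive pools (95% interval -0.10 to 0.18). The pools of both genes overlapped, and both values turned negative with quantile normalization (-0.08 for both). The intervals leave room for changes of up to about 0.19 on the log2 scale in Ddx21.

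Some members share a feature of gene structure. In the annotation of NCBIM37, 7 of the 34 members (20.6%) contain a snoRNA gene on their own strand, against 216 of 10952 tested protein-coding genes (1.97%). These hosts are Ncl, Gnl3, Nop56, Nop58, Dkc1, Wdr43 and Tsr1. Of the 7, 5 were higher in GC B cells and Gnl3 and Tsr1 were not called, and their median log2 fold change was 0.29, against 0.14 for the other 27 members. Over the 216 host genes, 106 were higher, 49 were lower, and the median was 0.18. For comparison, 55.9% of all 34 members were higher, and of all genes tested 35.5% were higher and 30.1% lower. The share of hosts among the other ribosome biogenesis and ribosomal protein genes was not examined, so it is not shown to be particular to the members. The levels of the snoRNAs were not analysed here.

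Promoter letters were examined in the 30 members with a promoter entry, from 250 bases before to 50 after the start site. Both strands were read, and overlaps between motifs were not removed. Rrp12, Bop1, Fbl and Npm1 were without a promoter entry. CCGGAAG (ETS) was found in 11 of 30 promoters (36.7%), against 19.8% of 8029 promoters of tested genes and 9.14% of all 27025. These were Ddx10, Gar1, Heatr1, Nhp2, Nip7, Nolc1, Nop2, Polr1c, Polr1e, Tsr1 and Wdr74. The ETS share was not particular to the members. It was 44.2% of 86 promoters of the other ribosome biogenesis genes described below and 36.5% of 63 promoters of cytosolic ribosomal proteins. Of the 11 genes, 6 were higher, 1 was lower and 4 were not called, and of the 19 others 10 were higher, 2 were lower and 7 were not called. CACGTG, the E-box bound by MYC, a known activator of ribosome biogenesis, was found in 5 of 30 (16.7%), against 10.8% of the tested promoters and 7.24% of all. Of these 5, Wdr43 was higher and Mybbp1a, Nop2, Pes1 and Tsr1 were not called. Of the 25 others 15 were higher, 3 were lower and 7 were not called. The median log2 fold change was 0.07 with the E-box and 0.28 without it. The E-box share was 19.8% in the other ribosome biogenesis genes and 7.94% in cytosolic ribosomal proteins. The share with GGGCGG (GC box) was 70% of members and 64.7% of tested genes, with CCAAT 36.7% and 40.03%, with TATAAA 6.67% and 6.601%, with AAGATGG (YY1) 3.33% and 7.71%, and with GCATGCGC (NRF1) 3.33% and 5.88%. These 30-base segments show the E-box in capitals on the strand of the gene, in the called gene and in 3 genes that were not called.
Wdr43, chr17:71616220-71616249, plus strand: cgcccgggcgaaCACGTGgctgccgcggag
Nop2, chr6:125131811-125131840, plus strand: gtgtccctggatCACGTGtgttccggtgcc
Pes1, chr11:3963965-3963994, plus strand: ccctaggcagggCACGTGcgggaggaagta
Tsr1, chr11:74898092-74898121, plus strand: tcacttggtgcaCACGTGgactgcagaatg

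The rest of the pathway was examined with a list of 110 other ribosome biogenesis genes, of which 108 had a value under their listed symbol and all 108 were tested. In GC B cells 40 were higher (37.04%), 23 were lower (21.3%) and 45 were not called, with a median log2 fold change of 0.12, so that the shares were nearer to those of all genes than the members' were. The excess of higher calls in this list depended on the processing, with 27 higher and 27 lower after quantile normalization, and 31 higher and 28 lower after adjusting for base composition and transcript length. By role, snoRNP core and assembly factors were higher in 6 of 8 and lower in 0 (median 0.62). RNA polymerase I subunits and initiation factors were higher in 5 of 10 and lower in 2, 40S factors higher in 13 of 43 and lower in 6, and 60S factors higher in 15 of 44 and lower in 14. Of the 3 scaffold paralogs 1 was higher and 1 lower.

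The 4 genes of this list with the largest increases included 3 that assemble snoRNPs. Ruvbl2, an ATPase that loads box C/D proteins and serves other complexes too, was at 125, 124 and 118 TPM across the GC pools against 50.1, 51.3 and 53.6 TPM across the naive pools (log2 fold change 1.23 ± 0.05 (SE), adjusted p = 3.02e-06). Its partner Ruvbl1 was at 80.3, 84.9 and 77.9 TPM across the GC pools against 41.5, 40.5 and 40.4 TPM across the naive pools (log2 fold change 0.97 ± 0.052 (SE), adjusted p = 1.06e-05), and Naf1, which precedes Gar1 in immature H/ACA particles, was at 12.8, 11.99 and 13.8 TPM across the GC pools against 6.36, 5.61 and 5.45 TPM across the naive pools (log2 fold change 1.03 ± 0.1 (SE), adjusted p = 0.000161). Each GC pool was above each naive pool. Polr1d, the subunit that pairs with Polr1c in RNA polymerases I and III, was at 189, 184 and 187 TPM across the GC pools against 94.7, 83.5 and 95.5 TPM across the naive pools (log2 fold change 1.03 ± 0.062 (SE), adjusted p = 1.7e-05).

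Of the 4 with the largest decreases, 3 act on pre-60S particles. Mdn1, a giant ATPase that strips assembly factors, was at 26.3, 17.6 and 22.03 TPM across the GC pools against 38.9, 44.1 and 45.7 TPM across the naive pools (log2 fold change -0.95 ± 0.15 (SE), adjusted p = 0.00152). Nle1, the factor on which Mdn1 pulls, was at 24.1, 30.9 and 26.8 TPM across the GC pools against 58.01, 50.1 and 53.96 TPM across the naive pools (log2 fold change -0.97 ± 0.1 (SE), adjusted p = 0.000266). Las1l, which takes part in cutting the spacer behind the shorter rRNA of the large subunit, was at 27.7, 31.2 and 29.1 TPM across the GC pools against 41.8, 56.2 and 45.8 TPM across the naive pools (log2 fold change -0.68 ± 0.12 (SE), adjusted p = 0.00224). No pool of either population crossed into the other. Taf1c, of the factor that places RNA polymerase I on its promoter, was at 14.6, 18.8 and 14.8 TPM across the GC pools against 24.7, 27.2 and 22.7 TPM across the naive pools (log2 fold change -0.61 ± 0.12 (SE), adjusted p = 0.00458).

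Genes of the ribosome itself were mostly called lower in the cytosolic family and mostly higher in the mitochondrial one. Of 80 cytosolic ribosomal protein genes tested (84 listed), 12 were higher in GC B cells and 42 lower (16 and 31 after quantile normalization), with a median log2 fold change of -0.18, and their sum took up 11.4% to 11.8% of all TPM in the GC pools and 12.7% to 14.3% in the naive pools. Of 76 mitochondrial ribosomal protein genes, 55 were higher and 3 lower (median 0.46). These families hold near-identical copies and pseudogenes, between which reads are divided. Among the nuclear RNA polymerases, subunits listed for RNA polymerase II were higher in 9 of 12 and lower in 1, and those for RNA polymerase III were higher in 5 of 11 and lower in 6. The 5 subunits that RNA polymerases I, II and III share, picked out after their values were seen, had log2 fold changes of 0.53 for Polr2f, 0.59 for Polr2h and 0.49 for Polr2k, all higher, -0.43 for Polr2e, which was lower, and -0.06 for Polr2l, which was not called. Whether the members differed from these families was not tested.

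**Figure D4:**
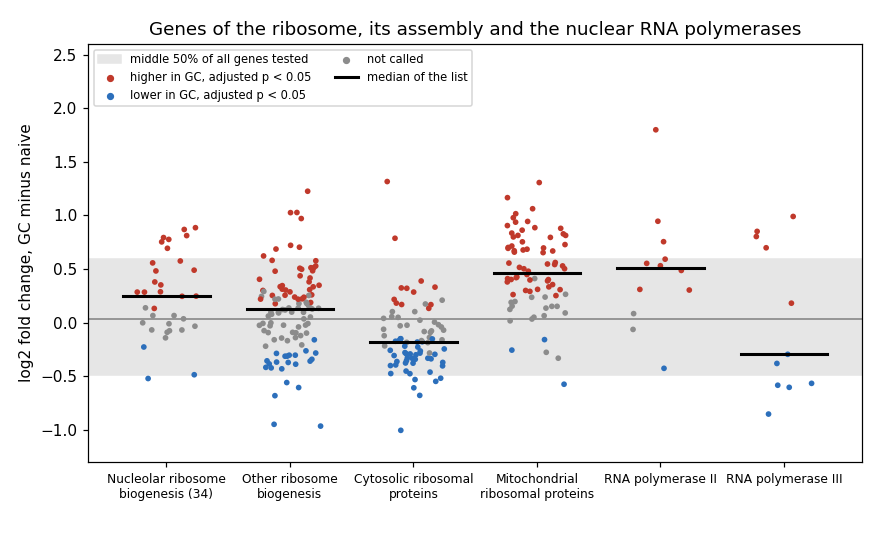
Log2 fold change, GC minus naive, of each tested gene in 6 gene lists. Red points are higher and blue points lower in GC B cells at an adjusted p under 0.05, grey points are not called, black bars are the medians of the lists, and the grey band and line are the middle 50% and the median of all genes tested. The bar of the members is at 0.25, that of other ribosome biogenesis genes at 0.12, of cytosolic ribosomal proteins at -0.18 and of mitochondrial ribosomal proteins at 0.46.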

How the data were processed

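RNA-Seq libraries from sorted GC and naive B cells (3 pools each) were analysed. The authors demultiplexed reads with CASAVA 1.8, checked them with FastQC, removed adapters with cutadapt 1.9, ran RSEM 1.2.25 against mouse transcripts of NCBIm38 v75, and deposited FPKM per gene and pool. FPKM summed to between 717537 and 774597 per pool and was rescaled to TPM here. The files hold no read counts, depth was not estimated, and no count test was used.

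Gene symbols came from the NCBIM37 annotation (33398 of 39179 identifiers), and promoters and coordinates from RefSeq GRCm38.p6. The populations were compared by limma 3.58.1 (R 4.3.3; lmFit, eBayes with trend) on log2(TPM + 1) over the 12785 genes that reached 1 TPM in 3 or more pools, which understates changes of low genes. A gene was called at a Benjamini-Hochberg adjusted p under 0.05. P-values measure the spread between 3 pools per population. The fit was checked on simulated data. Other steps used Python 3.11.15, pandas 2.3.3, scipy 1.17.1 and matplotlib 3.10.9.

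The 34 members and the other gene lists were chosen with earlier results of these data known. All members are named, and of the other ribosome biogenesis genes the 4 called genes with the largest increase and the 4 with the largest decrease. Alternatives covered the pseudocount, the filter, FPKM as deposited, other scalings, the trend, a replicate block and leaving out each pool. An adjustment for base composition (GC content) and transcript length (median over annotated coding transcripts) was chosen after seeing the data, as were the pool ratios, promoter letters and host genes.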

Additional observations from a re-analysis of the deposited data

How the results depend on the processing

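Of 19 members called higher, 14 kept that call in all 16 alternatives, as did 2 of 3 called lower (Polr1b and Rrp9), and 9 of 12 not called stayed so. The exceptions were Polr1c, Polr1e, Nop56, Nop10, Bop1, Heatr1, Gnl3, Nob1 and Nop2, and the causes were not tested. The count of members called ran from 17 to 23 over the fits without 1 pool. Members called lower rose to 5 with quantile normalization. The median log2 fold change of the members was 0.19 with FPKM as deposited, 0.13 with quantile normalization, 0.19 with the adjustment for GC content and length (with and without the replicate block), and between 0.21 and 0.26 without 1 pool. The members' share of TPM in GC B cells was 0.381% over genes above 0 in every pool. Cytosolic ribosomal proteins called higher numbered 7 with FPKM as deposited and 7 with median of ratios scaling. Mitochondrial ribosomal proteins called lower numbered 1 without the trend, and between 1 and 2 without 1 pool, the lower count without naive replicate 1 or naive replicate 3.

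Among the 544 member values under alternatives, 477 kept direction and call, 37 lost a call, 7 gained a call and 23 changed sign. Of these, Nop10 alone had been called: it was -0.0198 with quantile normalization and -0.0561 with the adjustment for GC content and length, the latter with and without the block. In the same way Tsr1 was -0.0376 and -0.0677, and Ddx21 was -0.0786 and -0.0478. Mybbp1a was -0.0157 with FPKM as deposited, -0.0771 with quantile normalization and between -0.0218 and 0.0657 without 1 pool. Ddx18 was 0.0034 with the total over genes above 0 in every pool. Without 1 pool, Pes1 was between -0.134 and 0.024, Wdr74 between -0.0785 and 0.0396 and Ddx18 between -0.0642 and 0.0635.

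Pools carry the numbers 1 to 3 in both populations. Deviations of pools with the same number correlated at 0.083, 0.0225 and 0.0456, all below 0.1, so the numbers were not taken as pairs, and not every pool correlated best with its own number, since naive replicate 2 correlated best with GC replicate 3 (0.0298). With the replicate block 17 members were higher and 2 lower, and 7960 of all genes were called, against 8392 without it; Polr1c, Nop10 and Heatr1 lost their calls. Depth was not estimated, so no limit of detection is given.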
